A study of Mus musculus with 71 samples.

Results

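The genes for translation initiation and elongation factors were followed in SLAM-seq libraries from mouse embryonic stem cells (mESC). Members were all genes of the deposited tables whose name starts with Eif or Eef and a digit, which gave 65 genes (53 Eif and 12 Eef) of the 21527 listed. The names also take in regulators of these factors, such as the kinases that phosphorylate eIF2 and the methyltransferases that modify elongation factors.

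In SLAM-seq, cells take up the uridine analogue 4-thiouridine (s4U), and iodoacetamide later turns each incorporated s4U into a T-to-C conversion in the reads, so that the share of covered T positions read as C (the conversion rate) follows the loss of labelled RNA after the label is replaced by uridine. Male mESC grown in 2i/LIF medium received 100 µM s4U during 24 h, after which an excess of uridine replaced it (the chase). STM2457 (20 µM), an inhibitor of the m6A methyltransferase Mettl3, or its solvent DMSO was given from 6 h before the chase until the cells were lysed. Cells were lysed at 0, 1, 1.5, 2.3, 3.5, 5.3, 8 and 12 h of the chase, and each treatment had 4 labelled libraries per time (only 3 for STM2457 at 3.5 h) and 4 unlabelled ones, 71 in all. The study used this design to ask how m6A depletion affects transcript stability. The labels name replicates by number without saying that they came from separate cultures. The paper states in general that its replicate numbers stand for independent biological replicates. The p-values measure the spread between these libraries.

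Translation starts when the cap-binding complex eIF4F recruits the small ribosomal subunit, which already carries eIF3, eIF1, eIF1A, eIF5 and the ternary complex of eIF2, GTP and initiator tRNA. After the start codon is found, eIF5B joins the large subunit, and eEF1A and eEF2 then drive each round of elongation by delivering tRNA and moving the ribosome. Phosphorylation of eIF2, the 4E-binding proteins and the kinase of eEF2 are the classical brakes on this machinery. Many of its mRNAs begin with a run of pyrimidines at the 5′ end, the terminal oligopyrimidine tract, through which growth signals control their translation.

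Between 4539726 and 7368244 reads per library fell on the counted 3′ UTR windows (median 5726508), of which 2.79% to 3.65% were on the members. Of 9 listed markers of naive mESC, 8 had reads in every library, and their summed level was 3649 to 5089 CPM (the reads of a gene scaled to the same total in every library) in DMSO and 3949 to 4862 in STM2457. Fibroblast markers summed to 7.72 to 25.4 and 10.7 to 32.1 CPM, and differentiation markers to 23.6 to 117 and 28.6 to 77.3. The mESC sum was led by Dppa5a and Pou5f1, with medians of 2683 and 822 CPM over all libraries. Tfcp2l1, Tbx3 and Zfp42 had medians of only 32.2, 35.3 and 52.6 CPM, and Klf4 one of 2.71. The mESC marker Sox2 and the differentiation markers Pax6 and Sox1 were also sought but are not among the listed genes. The cells are labelled male, yet the Y-chromosomal genes Ddx3y, Kdm5d and Uty had 0 reads in all 71 libraries, and the member Eif2s3y had 5 reads in 3 libraries, all multimapping. Of 87 listed genes placed on the Y chromosome, 4 had a read. Together they held 65240 reads over all libraries, nearly all on genes other than Eif2s3y. The cause was not tested.

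The libraries fell apart along a first principal component, computed without the members, that held 13.9% of the variance and was not ordered by chase time. Group means were -17.5, -40.6, -25.8 and -30.7 for DMSO at 0, 1, 1.5 and 5.3 h, -17.4 for unlabelled DMSO and -37.8 for STM2457 at 1 h. The libraries of both treatments at 2.3, 3.5, 8 and 12 h all lay above 0, between 0.406 and 27.2. The labels name no batch that matches this split, and its part in the results was not tested. Level comparisons over the whole chase are therefore given beside those restricted to 2.3, 3.5, 8 and 12 h, a restriction chosen after the data had been seen.

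Since each library read only the 3′ ends of transcripts, CPM values compare genes without division by length. The elongation factors had the highest levels, led by Eef1a1, which brings aminoacyl-tRNA to the ribosome, with a mean of 8817 CPM over the 71 libraries. Eef2, which moves the ribosome along the mRNA, followed at 2469, Eef1b2, an exchange factor for eEF1A, at 2071, and Eif5a, which relieves stalled ribosomes, at 1743. The helicase subunit Eif4a1 and the start codon factor Eif1 stood at 1342 and 1341 CPM. Eif4g2, an eIF4G relative that does not bind the cap-binding protein, stood at 1191, and Eef1g, another eEF1 subunit, at 1014. The 14 eIF3 genes lay between 15.6 (Eif3j1) and 554 (Eif3i), with a median of 282. The 4 eIF2 kinases were low, from 2.13 for Eif2ak2 to 45.8 for Eif2ak1.

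Not every value is secure for its gene. More than 50% of the reads were multimapping for Eef1a1 (83.0%), Eif4a2 (83.0%), Eif3m (74.7%), Eif1 (71.8%), Eif4a1 (63.1%) and Eif4e (61.7%), so reads of close copies may be counted with these genes. Among paralogues, Eif1a and Eif1ax, which both encode eIF1A, are told apart well, with 0.34% and 0.36% multimapping reads. Of the 65 members, 62 passed edgeR's filter on low counts. The others were the second copy of eIF2γ on the Y chromosome, Eif2s3y, with 5 reads in all libraries, the methyltransferase gene Eef1akmt3 with 7, and Eif4e1b, a relative of the cap-binding protein, with 149.

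**Figure D1:**
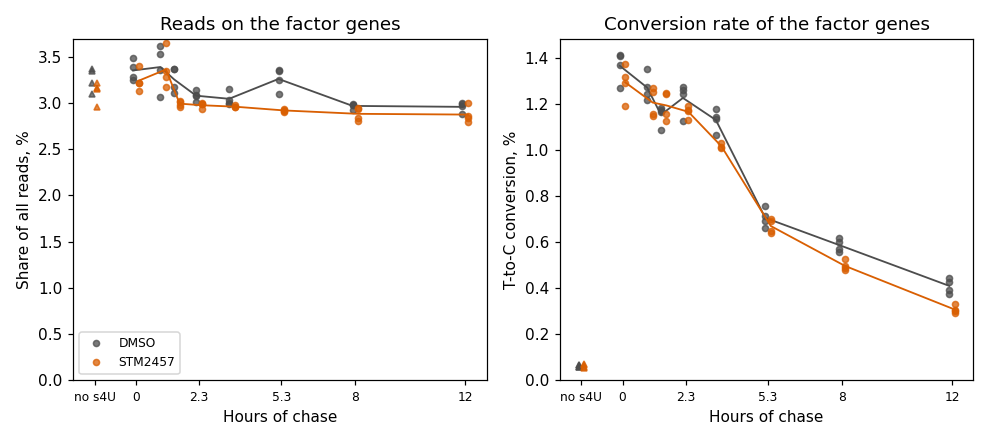
The summed members in each library by hours of chase, as share of all reads (percent, left) and as T-to-C conversion rate (percent, right), for DMSO and STM2457, each point 1 library. Read shares stay between 2.79% and 3.65%, and the conversion rates fall from above 1% to below 0.5% at 12 h, where the STM2457 libraries (0.290% to 0.333%) lie below the DMSO libraries (0.377% to 0.445%).

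The label was lost more slowly from the summed members than from all genes together. A summed rate gives most weight to the genes with most coverage. Eef1a1 alone held from 23.9% (DMSO replicate 1 at 3.5 h) to 38.5% (STM2457 replicate 4 at 1 h) of the members' reads in a library. The members' summed conversion rate fell in DMSO from 1.37% ± 0.0662 (SD, n = 4) at 0 h to 0.410% ± 0.0316 at 12 h, while that of all genes fell from 1.37% ± 0.0668 to 0.279% ± 0.0104. In unlabelled DMSO libraries the members' rate was 0.0622% ± 0.00564. Half-lives were fitted as single exponential decays to the background-subtracted rate averaged over replicates, and 57 members were among the 7394 transcripts that passed the filters in both treatments. The median half-life of the members in DMSO was 4.45 h against 3.19 h for all transcripts. Of the members, 10 (17.5%) had a half-life above 8 h, against 4.04% of all transcripts, and 30 lay above the 75th percentile of all transcripts, 4.33 h. The rate of all genes fell from 1.01% at 3.5 h to 0.534% at 5.3 h in DMSO, a larger step than its neighbours, so a single exponential describes the course only roughly.

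The longest half-life was that of the eIF3 subunit gene Eif3i with 12.6 h in DMSO, followed by Eif3h with 12.04 h, Eef1a1 with 11.6 h, Eif3f with 11.3 h and Eif3k with 10.3 h. When each replicate number was fitted as its own series, Eef1a1 gave 12.7, 10.3, 12.5 and 11.1 h, whereas Eif3h gave 13.6, 27.5, 9.25 and 8.52 h, so the order of these 5 is not resolved by the spread between series. The 13 eIF3 genes with a half-life had a median of 7.50 h, the 5 eEF1 genes one of 8.67 h, and Eif5a and Eef2 had 8.76 and 8.71 h. The 10 eIF4 genes had a median of 4.06 h and a maximum of 5.41 h (Eif4g2).

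The shortest half-life was that of Eif1a with 1.81 h. It was followed by Eif2ak3 (PERK, the eIF2 kinase of the endoplasmic reticulum) with 1.83 h, Eif4a2 with 1.87 h, Eif4g3, a further eIF4G gene, with 2.14 h, and Eef1aknmt, a methyltransferase of eEF1A, with 2.36 h. Below the median of all transcripts lay 10 members, among them also Eif1 (2.84 h) and Eif4e (3.18 h). Paralogues could lie far apart, as Eif1ax had 7.52 h against 1.81 h for Eif1a and Eif4a1 had 4.08 h against 1.87 h for Eif4a2. The contrast of the eIF4A genes is less secure, since 63.1% of the Eif4a1 and 83.0% of the Eif4a2 reads were multimapping. No half-life was fitted with uniquely mapping reads alone. The series of Eif1ax (5.26 to 10.2 h) and of Eif1a (1.44 to 2.48 h) did not overlap. Of the 8 members without a half-life, Eif2s3y, Eef1akmt3 and Eif4e1b lacked T coverage, Eef1a2, Eif2ak4 and Eif5a2 left the allowed range of 0.67 to 18 h, and Eif2ak2 and Eif3j2 had a residual standard error above 0.3.

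**Figure D2:**
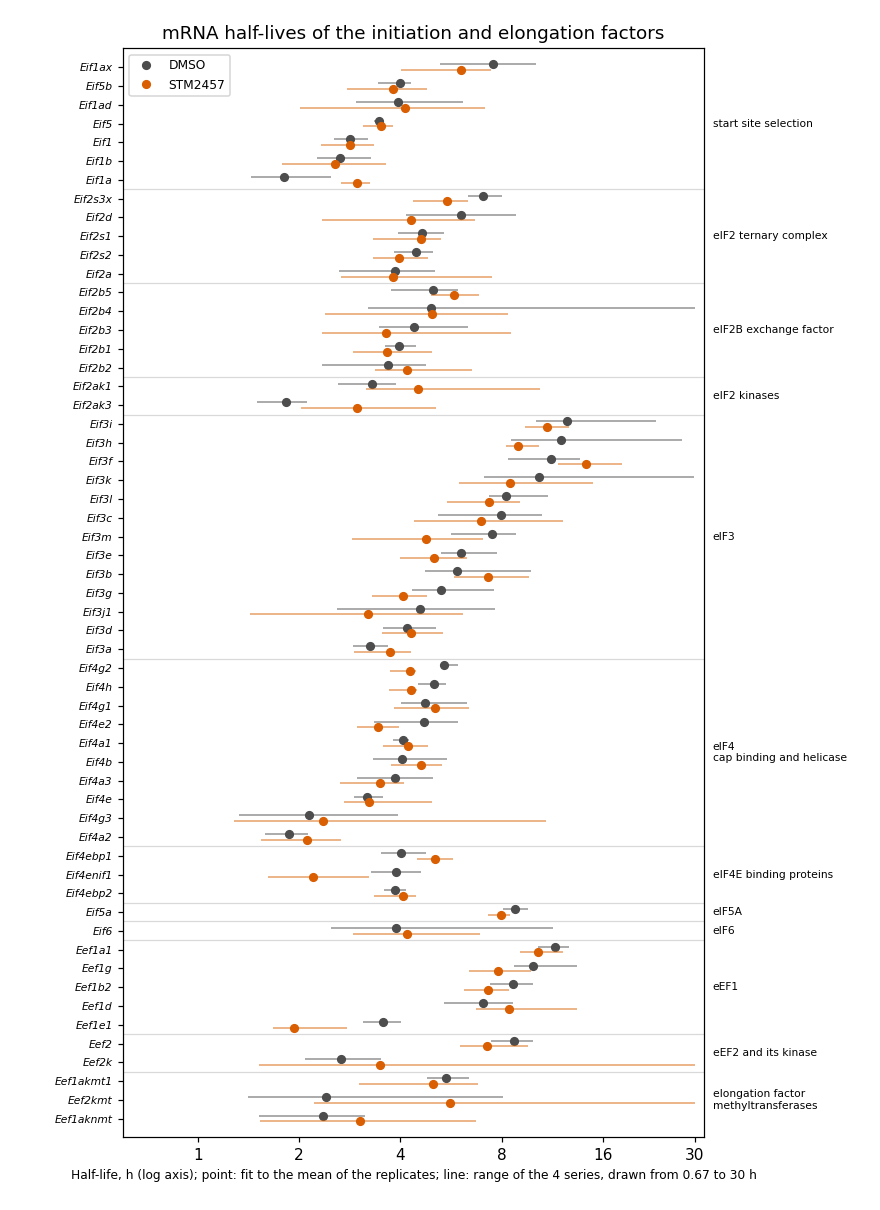
Half-lives in h (log axis) of the members that passed the filters, ordered by role, in DMSO and STM2457, with points for the fit to replicate means and bars for the range of the 4 replicate series, clipped at 0.67 and 30 h. In DMSO the members run from 1.81 h (Eif1a) to 12.6 h (Eif3i), and the elongation factor and eIF3 genes fill the upper end.

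Pyrimidine runs at the 5′ end itself are the known sequence feature of mRNAs of the translation machinery. The start regions of members with a half-life above 8 h in DMSO were searched for runs near the start. Of these 10 members, 5 had a run of at least 8 pyrimidines (only C or T) within 20 bases before to 30 after the annotated start, Eef1b2 with 1 annotated start and Eif5a with 6 had none, and Eif3i, Eif3h and Eef1g were not searched. The 5 runs are shown in capitals in RefSeq sequence (GRCm38.p6), each in a 30-base window centred on the run, which need not include the start itself, and the Eef1b2 window is centred on its start. The run begins 5, 4 and 7 bases before the start in Eef1a1, Eif3f and Eif3l, and 14 and 13 bases after it in Eef2 and Eif3k. The runs of Eef2 and Eif3k thus lie inside the annotated transcript and not at its 5′ end.
Eef1a1 (chr9:78481710-78481739, minus strand): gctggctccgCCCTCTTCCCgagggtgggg
Eef2 (chr10:81176634-81176663, plus strand): gacgtcagcggTCTCTTCCgccgcagccgc
Eif3f (chr7:108934403-108934432, plus strand): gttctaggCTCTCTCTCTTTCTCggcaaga
Eif3k (chr7:28981856-28981885, minus strand): gctgaaagcgCCTTTCCCTTTgccttcctt
Eif3l (chr15:79075206-79075235, plus strand): aggcgcggagTTCTTCTTCCgctctctccc
Eef1b2 (chr1:63176816-63176845, plus strand): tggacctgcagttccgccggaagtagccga

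Such a run, on the gene's strand and within 20 bases before to 30 after an annotated start, was present in 14 of the 51 members with a RefSeq start region (27.5%) and in 21.5% of the 27025 genes with one. Among members with a half-life, the 11 with a run had a median of 7.50 h in DMSO (3.18 to 11.6 h) and the 35 without one a median of 3.98 h (1.83 to 8.77 h). The ranges overlap. An annotated start need not be the one used in these cells, and no test was made.

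Half-lives under STM2457 differed from those in DMSO for no member by limma. The median over the 57 members was 4.30 h in STM2457 and 4.45 h in DMSO, with a median log2 change of -0.05, while that of all transcripts rose from 3.19 to 3.45 h with a median log2 change of 0.07. Half-lives were longer in STM2457 for 25 members (43.9%) and shorter for 32, against 56.7% longer among all transcripts. With the 4 replicate series of each treatment, limma called 0 of 50 members at an adjusted p under 0.05, as it did 0 of 5761 transcripts (0.0%). At an unadjusted p under 0.05 there were 5 members and 394 of all transcripts. The STM2457 series of replicate 4 has no 3.5 h library, unlike the other series. With 3.5 h left out of every series, limma called 0 of 5887 transcripts, and their median log2 change was 0.09 in place of 0.05.

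Of the 10 members with a DMSO half-life above 8 h, 9 had a shorter one in STM2457. They were picked by their DMSO value, and 82.9% of all 299 transcripts above 8 h were likewise shorter. Eif3f was the exception, with 11.3 h in DMSO and 14.2 h in STM2457.

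For 6 of the 50 members the series of the treatments did not overlap, against 4.36% of all transcripts (2.62% longer and 1.74% shorter in STM2457). Of the 6, 1 was longer in STM2457, namely Eif1a, and 5 were shorter. Its series gave 1.44, 1.69, 1.75 and 2.48 h in DMSO and 3.25, 2.96, 2.66 and 2.92 h in STM2457, with fits to the means of 1.81 and 2.98 h (two-sided exact permutation p = 0.0286, the smallest that 4 against 4 series allow, limma adjusted p = 0.707). All 4 STM2457 values lay above the highest DMSO value.

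The other 5 were shorter in STM2457. The series of Eif4g2 gave 5.95, 5.29, 5.25 and 5.23 h in DMSO and 4.45, 4.36, 4.24 and 3.72 h in STM2457. Eef1e1, a subunit of the aminoacyl-tRNA synthetase complex, had 3.48, 3.09, 3.77 and 4.01 h against 1.68, 2.07, 1.75 and 2.78 h. Eif4enif1, which carries eIF4E into the nucleus, had 3.28 to 4.60 h against 1.62 to 3.23 h. Eif2s3x, the eIF2γ gene on the X chromosome, had 6.38 to 8.03 h against 4.37 to 6.34 h, and Eif4h, a helper of the eIF4A helicase, had 4.51 to 5.48 h against 3.71 to 4.50 h. In Eef1e1 and the last 3 the gap was smaller than the range of either treatment.

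The largest rises of fitted half-life in STM2457 were those of Eef2kmt, the eEF2 methyltransferase, from 2.41 to 5.62 h, of Eif1a and of Eif2ak3, from 1.83 to 2.97 h, and the largest falls those of Eef1e1 (3.54 to 1.94 h), Eif4enif1 (3.90 to 2.20 h) and Eif3m (7.50 to 4.76 h). For Eef2kmt the STM2457 series ran from 2.22 to 324 h and covered the DMSO range of 1.41 to 8.06 h, so its change is within the spread.

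Conversion rates at 12 h of chase were lower in STM2457 for 15 members and higher for 1. These rates were tested as counts of conversions with T coverage as offset in edgeR's quasi-likelihood test, at an adjusted p under 0.01, without background subtraction. The test called 16 of 62 members against 4.01% of the 11420 genes tested (3.51% lower, 0.499% higher), and the median log2 difference was -0.36 for the members and -0.07 for all genes. These shares and medians depend on T coverage. Among genes with a mean T coverage above 1000, the test called 487 of 8105, and their median log2 difference was -0.21. The summed rate of all genes was itself lower at 12 h, at 0.223% ± 0.00599 in STM2457 against 0.279% ± 0.0104 in DMSO (SD, n = 4), and the members' summed rate was 0.307% ± 0.0183 against 0.410% ± 0.0316. At 0 h edgeR called 0 of 62 members and 0 of all genes (0.0%), with 3 members and 207 genes at an unadjusted p under 0.05. There limma on background-corrected log2 rates also called 0 members. Rates at 0 h still leaned lower in STM2457, with a median log2 difference of -0.07 for the members and -0.11 for all genes. Of the 62 members, 47 had a negative difference at 0 h and 15 a positive one. The summed rate of all genes at 0 h was 1.28% ± 0.0728 in STM2457 against 1.37% ± 0.0668 in DMSO. The differences at 12 h given here are not corrected for those at 0 h. Without STM2457 replicate 4 the count at 12 h fell from 16 to 8.

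Among the called members the lowest ratio belonged to Eif4g2, on the minus strand of chromosome 7 (111067750 to 111083030, GRCm38). Its conversion rate at 12 h was 0.226%, 0.211%, 0.237% and 0.186% in the DMSO replicates and 0.123%, 0.0589%, 0.0812% and 0.107% in the STM2457 replicates, a log2 difference of -1.22 (SE 0.10, edgeR adjusted p = 1.805e-24). The groups did not overlap, while at 0 h they did, at 1.41% to 1.65% in DMSO and 1.42% to 1.52% in STM2457. After background subtraction, 11.2% of its label at 0 h remained at 12 h in DMSO and 2.73% in STM2457. It was called in all 12 settings of the test that were run, this one included, with log2 differences from -2.40 to -1.05.

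The eIF3 subunits Eif3m and Eif3c also had lower rates. Eif3c, one of the core subunits, had 0.559%, 0.651%, 0.621% and 0.659% at 12 h in DMSO and 0.272%, 0.418%, 0.369% and 0.285% in STM2457 (log2 -0.89, SE 0.18, adjusted p = 5.060e-05), without overlap. Eif3m differed by -0.93, with STM2457 replicate 4 lowest at 0.0672% and the other STM2457 libraries between 0.225% and 0.279%, below all DMSO libraries (0.314% to 0.501%). Eif3f, Eif3h and Eif3i differed by -0.48, -0.47 and -0.44, but were called in only 6, 7 and 8 of these 12 settings. Both X-chromosomal genes, Eif2s3x (-1.08) and Eif1ax (-0.83), were among the 15. For Eif2s3x the DMSO libraries were uneven, at 0.156%, 0.534%, 0.308% and 0.348%, and the lowest of them lay within the STM2457 range of 0.141% to 0.173%.

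Elongation factors differed less but with little spread. Eef1a1 had 0.606%, 0.580%, 0.683% and 0.704% in DMSO and 0.541%, 0.511%, 0.491% and 0.484% in STM2457 at 12 h (log2 -0.35, SE 0.04, adjusted p = 2.249e-11). Eef2 had 0.475%, 0.401%, 0.495% and 0.584% against 0.379%, 0.370%, 0.309% and 0.340% (log2 -0.48). Eef1b2 lay at 0.501% to 0.617% against 0.371% to 0.426% (log2 -0.47), and none of these 3 groups overlapped. Eef1g (-0.56), Eif5a (-0.31), Eif4a1 (-0.64) and Eif4a3 (-0.77), the RNA helicase of the exon junction complex, completed the lower group, of which Eif5a was called in only 5 and Eif4a3 in only 6 of the 12 settings.

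The single higher rate was that of Eif4g3, and it rests on few conversions. The DMSO libraries at 12 h held 2, 0, 2 and 0 conversions on 5602 to 5951 covered T positions, and the STM2457 libraries 10, 3, 13 and 16 on 4487 to 5619. The fitted log2 difference was 3.45 (SE 0.75, edgeR adjusted p = 3.742e-04). It was called in all 12 settings, with log2 differences from 3.085 to 3.941, but every setting rests on such low counts.

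**Figure D3:**
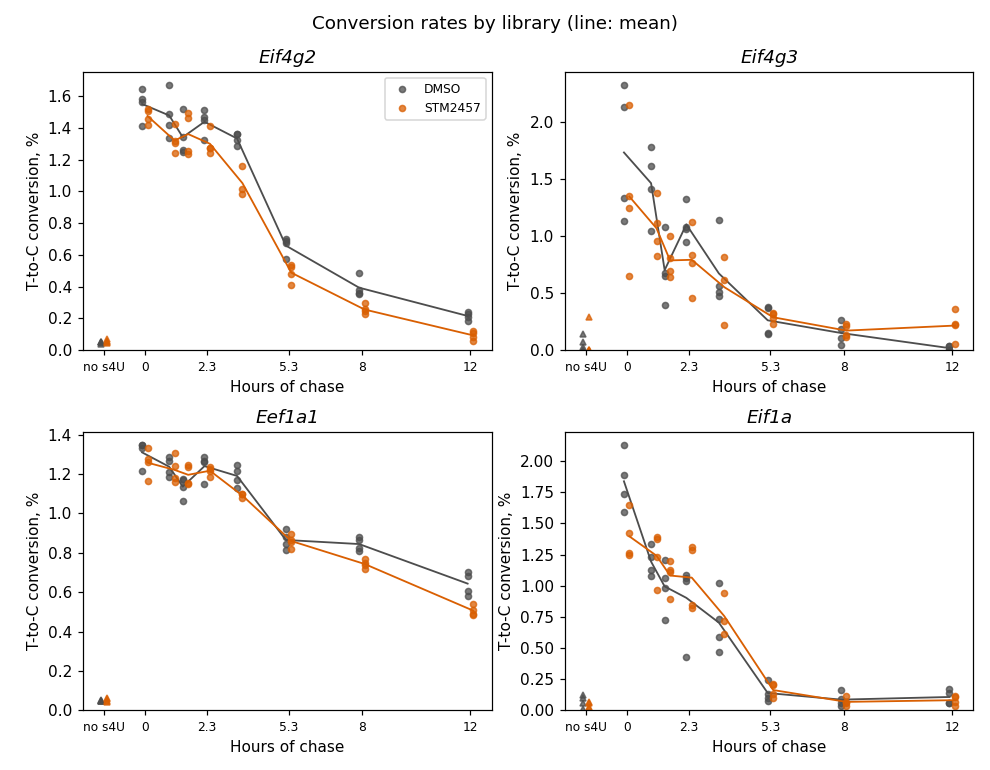
Conversion rate in percent by hours of chase for Eif4g2, Eif4g3, Eef1a1 and Eif1a in DMSO and STM2457, each point 1 library, each line through the group means and triangles for unlabelled libraries. At 12 h the 4 STM2457 libraries of Eif4g2 (0.0589% to 0.123%) and of Eef1a1 (0.484% to 0.541%) lie below all 4 DMSO libraries.

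When the difference between treatments at 0 h was taken off that at 12 h, edgeR called 6 members, against 1.4% of all genes (1.16% lower, 0.236% higher). Among genes with a mean T coverage above 1000, it called 165 of 8105. Eif4g2 (-1.15), Eif3m (-1.02), Eef2 (-0.47), Eef1b2 (-0.46) and Eef1a1 (-0.29) lost more of their rate in STM2457, and Eif4g3 less (3.82). The count was 1 without DMSO replicate 4, 3 without STM2457 replicate 3 and 2 without STM2457 replicate 4. Of 12 settings, this one included, Eif4g2 was called in all (adjusted p from 1.38e-15 to 6.239e-06), and Eef1b2 and Eif3m in 9, Eef1a1 and Eef2 in 8 and Eif4g3 in 7 of them.

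Read levels, averaged over the 8 chase times, were higher in STM2457 for 9 members and lower for 18 of the 62 tested. edgeR's quasi-likelihood test was fitted to the counts of all 71 libraries with Benjamini-Hochberg adjustment over 12659 genes, and 26.5% of all genes passed the adjusted p of 0.01 (13.9% higher, 12.6% lower). The median log2 difference was -0.07 for the members and -0.01 for all genes. In bulk libraries, fewer cells of a kind and less RNA per cell cannot be told apart. The levels are also relative to the other genes of each library, so a constant transcript can appear lower where others rise. For its RNA-seq, the paper warns that scaling to the total of all transcripts can bias levels. It used spike-ins or genes without m6A sites instead, which was not done here. Restricted to 2.3, 3.5, 8 and 12 h, 12 members were called, 3 higher and 9 lower, against 13.6% of all genes. Of these 12, 11 were among the 27, and all 27 kept their direction. Of the 27, 19 were called under each of 14 other settings of the test (other normalizations, filters or tools, the replicate block and leaving out replicates).

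Eif1a had by far the largest difference. Its level over the labelled libraries was 52.4, 115 and 167 CPM (lowest, median and highest of 32) in DMSO and 155, 173 and 374 (of 31) in STM2457, a log2 difference of 0.70 (SE 0.04, adjusted p = 5.452e-24), and 0.84 over the 4 restricted times (SE 0.06, adjusted p = 2.016e-19). It was the only member called at every time point and in the unlabelled libraries. Without label it stood at 140, 153, 147 and 162 CPM in DMSO and 232, 207, 194 and 208 in STM2457 (log2 0.49, SE 0.11, adjusted p = 2.833e-03), against 2.58% of all genes called there. At 0 h it stood at 162, 130, 123 and 134 against 195, 184, 191 and 208 (log2 0.53, 1.68% of all genes called). In both the groups did not overlap. The call did not hold when all libraries of 1 replicate number were left out, without label for DMSO replicates 2, 3 and 4 and STM2457 replicate 1 (adjusted p from 0.0117 to 0.0413), at 0 h for DMSO replicates 2, 3 and 4 and STM2457 replicate 3 (0.0108 to 0.0194), and at 3.5 h for DMSO replicate 2 and STM2457 replicates 1 and 3 (0.0117 to 0.0376). At 5.3 h it was lost without DMSO replicates 2 and 4 and STM2457 replicates 1, 2 and 3 (0.0102 to 0.0190). STM2457 replicate 4 at 1 h, at 374, stood far above the other 3 libraries of its group (191 to 230), and without that replicate the difference at 1 h was 0.40 (adjusted p = 0.0174). At 1.5, 2.3, 8 and 12 h the call held whichever replicate was left out.

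The gap widened during the chase. At 12 h the DMSO libraries held 56.6, 74.2, 52.4 and 76.0 CPM of Eif1a and the STM2457 libraries 167, 161, 156 and 155, a log2 difference of 1.34 (SE 0.12, adjusted p = 3.775e-14), where 5.41% of all genes were called. The difference at 12 h exceeded that at 0 h by 0.81 on the log2 scale (SE 0.16, adjusted p = 7.944e-04, 1.11% of all genes called). Without DMSO replicate 1 this value was 0.67 and no longer called (adjusted p = 0.0263), and against 2.3 h in place of 0 h it was 0.70 (adjusted p = 6.834e-03, 0.822% of all genes called). Its paralogue Eif1ax had 201, 192, 188 and 188 CPM in DMSO and 202, 160, 184 and 179 in STM2457 at 12 h, with overlapping groups.

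**Figure D4:**
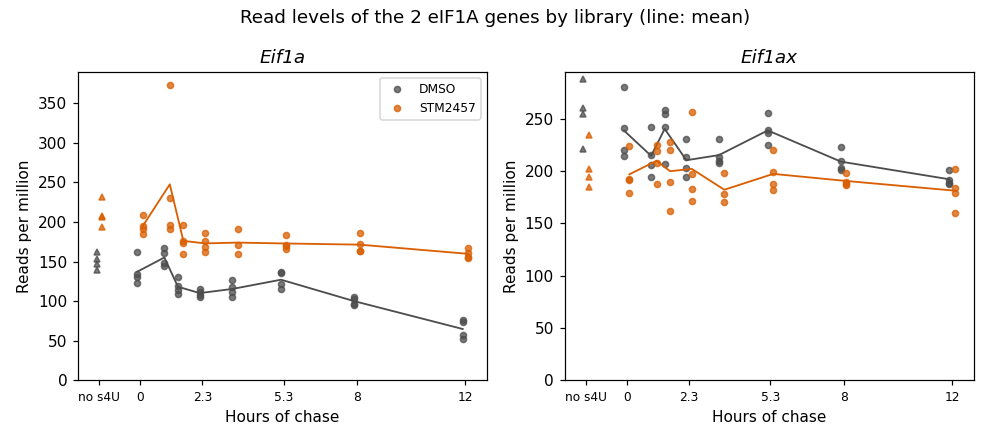
Levels of Eif1a and Eif1ax in CPM by hours of chase and in unlabelled libraries, each point 1 library (triangles without label) and each line through the group means, in DMSO and STM2457. Eif1a at 12 h lies at 52.4 to 76.0 in DMSO and 155 to 167 in STM2457, while the Eif1ax libraries of the treatments overlap.

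Cap binding and scanning factors moved in both directions. Of 10 tested eIF4 genes, 2 were higher and 3 lower. Eif4a2 was higher by 0.25 (SE 0.03, adjusted p = 7.430e-09) and by 0.33 over the restricted times, but 83.0% of its reads were multimapping, and with uniquely mapping reads the value was 0.20 (adjusted p = 0.0284) and not called. Eif4e, the cap-binding protein, rose by 0.10, a call made under 3 of the 14 other settings. Eif4e2, a cap-binding relative that represses translation, was lower by 0.33, from a median of 202 CPM in DMSO (148 to 341) to 166 in STM2457 (130 to 285). Eif4g3 was lower by 0.28, from 104 (68.2 to 139) to 80.7 (56.6 to 114), and both kept their call over the restricted times (-0.26 and -0.31). Eif4h was lower by 0.20. Of the 3 genes of eIF4E-binding proteins, only Eif4ebp1 was called (0.17). Over the restricted times Eif4h (-0.15, adjusted p = 0.0313), Eif4e (0.14, adjusted p = 0.0178) and Eif4ebp1 (0.17, adjusted p = 0.0601) were not called.

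Of the 14 eIF3 genes, 7 were lower, 1 was higher and 6 were not called. The lower ones were Eif3e (-0.41), Eif3j1 (-0.31), Eif3m (-0.29), Eif3l (-0.25), Eif3g (-0.20), Eif3b (-0.14) and Eif3h (-0.11). Eif3e spread widely, with a median of 162 CPM in DMSO (115 to 484) and 138 in STM2457 (102 to 562), and over the restricted times its difference was -0.19 and not called (adjusted p = 0.266). Eif3g, from 296 (241 to 354) to 252 (199 to 322), and Eif3b kept their calls (-0.20 and -0.15). The other 5 of the 7 did not, with values of -0.24 for Eif3j1 (adjusted p = 0.244), -0.15 for Eif3m (0.223), -0.11 for Eif3l (0.210) and -0.11 for Eif3h (0.0674) beside that of Eif3e. Eif3a, the largest subunit, was the higher one, by 0.16 and by 0.21 over the restricted times (adjusted p = 1.571e-03).

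Of the genes that supply initiator tRNA, 2 were called. Eif2d, which can deliver tRNA without eIF2, was lower by 0.39 (SE 0.05, adjusted p = 3.240e-10), from a median of 110 CPM in DMSO (86.0 to 165) to 89.1 in STM2457 (66.8 to 114), and by 0.33 over the restricted times. Eif2a, an alternative initiation factor, was lower by 0.29, but differed by -0.15 over the restricted times and was not called there (adjusted p = 0.318). The eIF2 subunits Eif2s1 (-0.07), Eif2s2 (0.04) and Eif2s3x (-0.07) were not called. Of the 5 eIF2B genes, whose products recharge eIF2 with GTP, Eif2b4 was lower by 0.33 and Eif2b2 higher by 0.32. Eif2b4 kept its call over the restricted times (-0.28), Eif2b2 did not (0.15), and Eif2b3 was called only there (-0.33) and at 12 h (-0.61). At 12 h its DMSO libraries held 99.3, 67.4, 108 and 102 CPM and its STM2457 libraries 57.8, 52.3, 70.7 and 58.3, with 1 overlapping DMSO library, and the call at 12 h held only without DMSO replicate 2 and without STM2457 replicate 3 among the single replicates left out (adjusted p otherwise from 0.0109 to 0.0582). None of the 4 eIF2 kinase genes was called.

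Among the remaining start site factors, Eif5b, the GTPase of subunit joining, was higher by 0.30 and Eif1ad by 0.19, and Eif5, the GTPase activator of eIF2, and Eif1ax were lower by 0.21 and 0.15. None of these 4 was called over the restricted times, with values of 0.17 for Eif5b (adjusted p = 0.392), 0.18 for Eif1ad (0.0230), -0.16 for Eif5 (0.0339) and -0.12 for Eif1ax (0.119). Eif6, which keeps the large subunit free, was lower by 0.18 and by 0.27 over those times.

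Elongation genes had small differences. Eef2 was lower by 0.12 (SE 0.03, adjusted p = 5.381e-04), from a median of 2562 CPM in DMSO (2190 to 2815) to 2347 in STM2457 (1854 to 2726), and by 0.14 over the restricted times, where it kept its call. Eef1g was lower by 0.16, and Eef2k, whose kinase blocks eEF2, was higher by 0.39 at a low level, with medians of 6.72 and 8.92 CPM. Neither was called over the restricted times (-0.06 and 0.13). Eef1a1 differed by -0.05 and was not called.

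**Figure D5:**
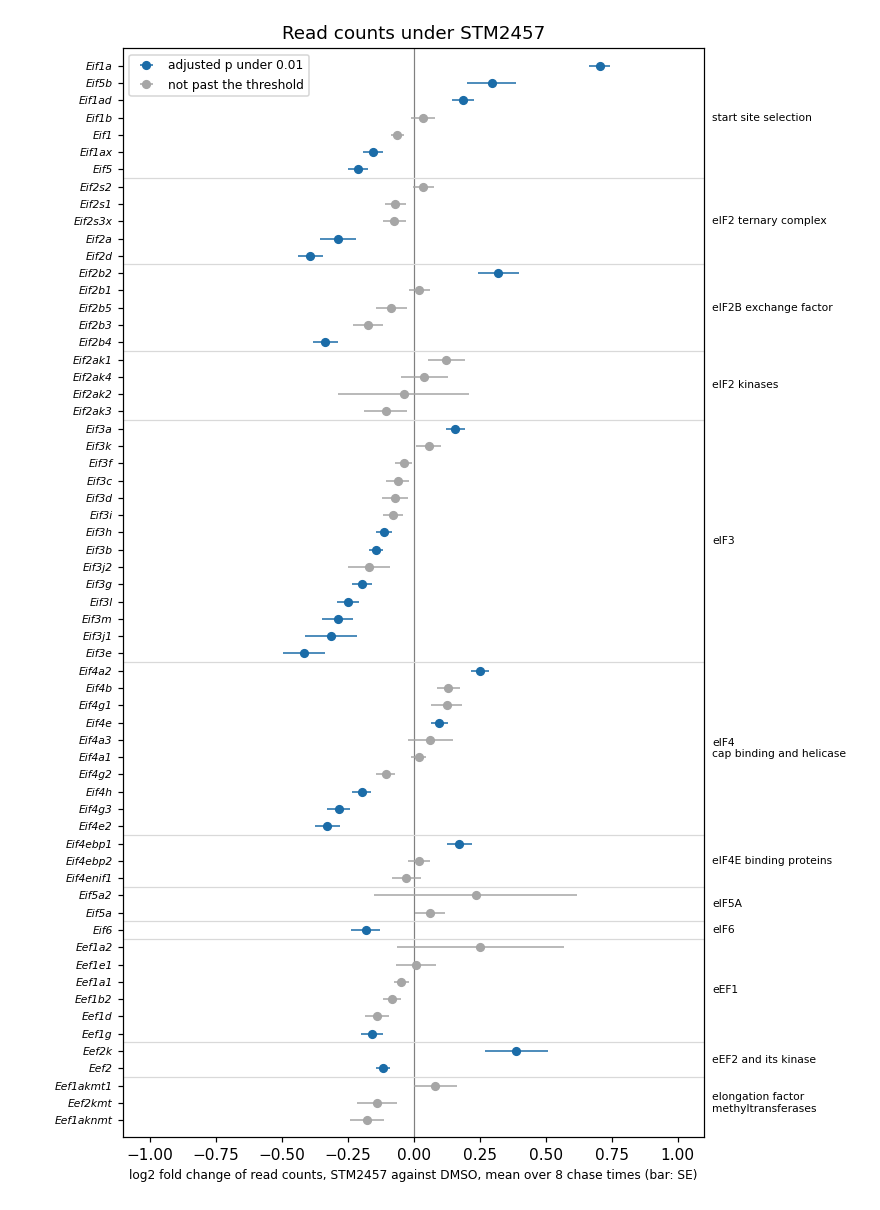
Log2 differences of read levels between STM2457 and DMSO with standard errors for the 62 tested members, averaged over the chase, with the members called by edgeR at an adjusted p under 0.01 marked. Eif1a stands apart at 0.70, and the other called members lie between -0.41 and 0.39.

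Taken time by time, few members were called outside 1.5 and 5.3 h, the times at which the libraries of the treatments lay on opposite sides of the first component. At 1.5 h 10 members were called (8.18% of all genes), 8 of them lower, among them Eif3e (-1.01), Eif3m (-0.72) and Eif3l (-0.63), and Eif4g1 was higher (0.71) beside Eif1a. At 5.3 h 8 were called (4.45% of all genes), 6 of them lower, led by Eif3e (-1.01) and Eif2d (-0.67), and Eif4ebp1 was higher (0.64) beside Eif1a. These counts moved when all libraries of 1 replicate number were left out. At 1.5 h they were 18 without DMSO replicate 1, 2 without DMSO replicate 2, 5 without DMSO replicate 4 and 4 without STM2457 replicate 2. At 5.3 h they were 20 without DMSO replicate 1, 2 without DMSO replicate 3 or 4, and 3, 4 and 5 without STM2457 replicates 1, 2 and 3.

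At the other times the members called beside Eif1a were Eif4a2 at 1 h (0.39) and 8 h (0.56) and Eif2b3 at 12 h. Of all genes, 1.53% were called at 1 h, 1.61% at 2.3 h, 1.3% at 3.5 h and 2.34% at 8 h. At 8 h Eif4a2 stood at 157, 157, 161 and 175 CPM in DMSO and 267, 246, 214 and 224 in STM2457, without overlap. With uniquely mapping reads neither difference of Eif4a2 was called (0.28 at 1 h and 0.38 at 8 h, adjusted p = 0.657 and 0.395), and at 1 h the call held only without STM2457 replicate 1 among the single replicates left out (without replicate 4 of that treatment it was 0.22).

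Levels also changed along the chase within each treatment. In DMSO, 2 of 62 members were higher and 16 lower at 12 h than at 0 h, while 4.84% of all genes were higher and 8.2% lower. The largest falls were those of Eif1a (-1.22), Eef1e1 (-1.09 with SE 0.21), Eif3m (-0.86), Eif4a2 (-0.83) and Eif3e (-0.82), and Eef1a1 fell by 0.52 on the log2 scale. Eef2k (1.50) and Eif4g3 (0.43) rose. In STM2457, 10 members were called, all lower, while 3.03% of all genes were lower and 1.69% higher, led by Eif4a2 (-0.80), Eif3m (-0.69) and Eif5 (-0.55). The STM2457 count fell to 6, 2, 4 and 6 without replicates 1, 2, 3 and 4 of that treatment. The share of multimapping reads in whole libraries was also lower at 12 h. It lay between 26.43% and 27.96% at 0 h and between 23.54% and 24.24% at 12 h in DMSO. In STM2457 it lay between 26.52% and 27.97% and between 22.48% and 24.93%. Of the members named as falling in DMSO, Eef1a1, Eif4a2, Eif3m and Eif3e had 83.0%, 83.0%, 74.7% and 46.6% multimapping reads. Eif1a and Eef1e1 had 0.34% and 0.31%. The part of this shift in the falls was not tested.

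From 2.3 to 12 h fewer of these members were called. All 18 DMSO and all 10 STM2457 members kept their direction, each with a smaller value. Between 2.3 and 12 h in DMSO, edgeR called Eif1a (-0.91), Eif4a2 (-0.57), Eif2s3x (-0.53) and Eif4a1 (-0.32), against 6.83% of all genes. The 15 members no longer called in DMSO lay between -0.67 (Eef1e1, adjusted p = 0.0263) and 0.62 (Eef2k, adjusted p = 0.221), with Eif3m at -0.34 and Eif3f at -0.28. In STM2457 it called Eif4a2 (-0.63), against 2.19% of all genes, while the 9 others lay between -0.33 and -0.09, and Eif1a differed by -0.21 (adjusted p = 0.334). With uniquely mapping reads, Eif4a2 differed by -0.17 between 0 and 12 h in DMSO and was not called (adjusted p = 0.611). Eif4a2 was also the only member that differed between labelled libraries at 0 h and unlabelled ones, by 0.47 in DMSO (0.513% of all genes called) and 0.52 in STM2457 (0.521%). Its libraries at 0 h held 302, 289, 270 and 295 CPM in DMSO and the unlabelled ones 207, 205, 218 and 176. With uniquely mapping reads edgeR called no member in either comparison (Eif4a2 0.50 and 0.45, adjusted p = 0.315 and 0.365). The call in DMSO was lost without any 1 of its replicates (0.40 to 0.54), and that in STM2457 without replicate 2 (0.55) or 3 (0.42).

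Other genes of translation were also called in both directions in the mean over the chase. Of 45 listed release, recycling, mitochondrial and signalling genes, 41 were tested, and 3 were higher, 12 lower and 26 not called (13.9% and 12.6% of all genes were higher and lower), with a median log2 difference of -0.10. The largest differences were those of the mitochondrial factors Mtif3 (0.58) and Gfm2 (-0.46), of Rps6kb1, a kinase that acts on the ribosome (-0.46), and of Mcts1, which works in reinitiation (-0.36). Ppp1r15b, which restores eIF2 by dephosphorylation, was higher by 0.28 and Dph1, needed for the diphthamide of eEF2, by 0.23. Between 0 and 12 h of chase, 2 were higher and 3 lower in DMSO, where 4.84% and 8.2% of all genes were, and 1 was lower in STM2457, where 3.03% of all genes were.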

How the data were processed

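For each of the 71 libraries the authors deposited raw counts per gene of reads, multimapping reads, covered T positions and T-to-C conversions, with the conversion rate as a fraction. Their CPM column, as deposited, scales reads to the library total, and levels here were recomputed from the read counts in the same way. Libraries were prepared with a QuantSeq 3′ kit and sequenced for 84 cycles on 3 flow cells. Per the study's methods, reads were mapped with SLAM-DUNK 0.4.3, allowing up to 100 mapping positions per read, and counted on 3′ UTR windows filtered to GENCODE M23. FastQC 0.11.8 and GRCm38.p6 are named in the submitters' processing notes. The labels number the time points, and their hours come from the paper. Gene positions are from GENCODE M21.

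Read counts were tested with edgeR 4.0.16 (quasi-likelihood, TMM, filterByExpr, adjusted p under 0.01) in 1 fit of all 18 groups, and conversions of genes with a mean T coverage above 100 and at least 10 conversions with T coverage as offset. Half-lives are least-squares fits to rates minus the unlabelled mean, kept from 0.67 to 18 h with a residual standard error up to 0.3, and were compared over 4 series per treatment with limma 3.58.1 (adjusted p under 0.05) and exact permutation tests. A series holds the labelled libraries of 1 replicate number. That of STM2457 replicate 4 lacks 3.5 h, and the series that do not overlap were not recounted without this time. Code ran on R 4.3.3 and Python 3.11.15 and was tested on simulated data.

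Alternatives were DESeq2 1.42.0, RLE size factors, no filter, uniquely mapping reads, the groups compared only, the replicate block and leaving out each replicate. Members and gene lists were chosen with earlier results of these data known. Named were the 3 highest members of each role, up to 10 called members per direction (3 in minor comparisons), the extremes of half-life, the X- and Y-linked and the multimapping members. Other members were named after their values were seen. No library was left out, and 105 replicate pairs held no identical counts. Reads carry no molecular identifiers as far as stated, so depth covers counting error only.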

Additional observations from a re-analysis of the deposited data

Results flagged for a closer look

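The share of reads on the members was 2.93% in STM2457 replicate 3 at 2.3 h, apart from the other 3 libraries of its group, of which the highest held 2.99%, by Dixon's criterion. Of 36 such tests of a group, chance flags about 1 in 20.

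The difference of the Eif1a level between STM2457 and DMSO was larger at 12 h than at 0 h by 0.81 on the log2 scale in edgeR's test of the difference itself (SE 0.16, adjusted p = 7.944e-04), with all 4 STM2457 libraries above all 4 DMSO libraries at both times. It was no longer called without DMSO replicate 1.

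The loss of conversions between 0 and 12 h differed between treatments for 6 members in edgeR's test of that difference. It was larger in STM2457 for Eif4g2 (-1.15), Eif3m (-1.02), Eef2 (-0.47), Eef1b2 (-0.46) and Eef1a1 (-0.29), and smaller for Eif4g3 (3.82), whose DMSO libraries at 12 h held 4 conversions in all. The cause was not tested.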

How the results depend on the processing

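No called difference of a named member changed direction in the settings run. Differences that were not called did, 16 of 37 for conversion rates at 12 h, 18 of 47 for their difference between 12 and 0 h, 4 of 29 for the mean over the chase and 14 of 52 for the difference of levels between 12 and 0 h. For counts of called members and median half-lives of the members, 213 values stayed within the limit and 70 did not. The limit was 1.5 times the count given, or for the medians the SD between series. Among values for single members, 1108 kept their side of the threshold or, for half-lives, stayed within the SD of the series. The call was lost for 161, and 1 half-life moved beyond its spread. The median half-lives moved only between 4.299 and 4.505 h (DMSO) and 4.222 and 4.607 h (STM2457) when single replicates were left out.

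Settings that moved a count were as follows. With uniquely mapping reads, 4 members were called between 0 and 12 h in STM2457, 0 in each comparison of labelled with unlabelled libraries, 1 at 1 h and 1 at 8 h. With the groups compared only, in place of a shared fit, 2 were called for the difference between 12 and 0 h, 0 for labelled against unlabelled DMSO, 0 between treatments without label, 0 at 1 h, 17 at 1.5 h, 3 at 3.5 h, 2 at 5.3 h and 4 at 8 h. Without the filter on low counts, 0 were called for labelled against unlabelled DMSO and 1 at 1 h, RLE size factors gave 1 at 1 h, and DESeq2 gave 13 at 5.3 h. Of the settings chosen after seeing the data, the mean over 2.3, 3.5, 8 and 12 h gave 12, and 12 h against 2.3 h gave 4 in DMSO and 1 in STM2457. The cause was not tested.

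With single replicates left out, counts of called members ran from 22 to 29 for the mean over the chase, 13 to 18 along the chase in DMSO and 2 to 11 in STM2457, and 0 to 1 for the difference between 12 and 0 h. They ran from 0 to 1 for labelled against unlabelled libraries in each treatment, 0 to 4 between treatments without label, 0 to 1 at 0 h, 0 to 2 at 1 h, 2 to 18 at 1.5 h, 0 to 1 at 3.5 h, 2 to 20 at 5.3 h and 1 to 2 at 12 h. For conversion rates they ran from 8 to 15 at 12 h and from 1 to 7 for the difference between 12 and 0 h.

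The labels give both treatments the same replicate numbers, but same-numbered libraries deviated together in only 1 of 35 pairs (correlation over 0.1, range -0.077 to 0.27), so the numbers were not taken as pairs. With the replicate number as a block, the mean over the chase called 29 members, the chase 18 in DMSO and 11 in STM2457, 1.5 h 12, conversion rates at 12 h 16 and their difference 6, and half-lives 0, and no count moved by over 1.5 times.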
